A study of Homo sapiens with 12 samples.

Results

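RNA sequencing of 3 human B cell lymphoma lines held 42 autosomal genes, of 63129 genes in the table, that were silent in RL cells and transcribed in both other lines. A gene was a member when its expression was under 0.5 FPKM in both RL libraries and at 5 FPKM or more in all 3 DMSO libraries of KARPAS-422 and both DMSO libraries of Pfeiffer. FPKM is a fragment number scaled for transcript length and for the size of the library. Genes with HIST, HLA or ANXA symbols were left out. The members were thus selected on the baseline levels in the 3 lines, which are given as a description with no test, whereas the libraries of inhibitor-treated cells took no part in the choice. The DMSO libraries against which these are compared did take part in it.

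RL cells received DMSO (n = 2). KARPAS-422 cells received the EZH2 inhibitor CPI-169 (n = 3), against DMSO (n = 3), and Pfeiffer cells received the EZH2 inhibitor GSK343 (n = 2), against DMSO (n = 2). Both inhibitors were used at 1.5 µM, the vehicle was 0.1% DMSO, and all cells were harvested after 4 days. All 3 lines come from diffuse large B cell lymphoma of the germinal centre type and share an activating change in the SET domain of EZH2. RL is labelled as not responding to EZH2 inhibition and the other lines as responding. RL was seeded at 200000 cells per ml and the other lines at 500000. The CPI-169 libraries are titled CPI169 and carry CPI524169 in another label, and the names were taken to mean 1 compound. No treated RL library was analysed here, so a change of a member with inhibition is known for KARPAS-422 and Pfeiffer alone. Each inhibitor was used in 1 line, so line and compound cannot be told apart.

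EZH2 is the catalytic subunit of Polycomb repressive complex 2, which methylates histone H3 at lysine 27 and keeps target genes off. A gene of a cultured lymphoma line can also be off because its CpG-rich promoter is methylated, because its locus is lost or because a needed transcription factor is missing, and none of these was measured here. GTSF1 and ACN9 are the genes the set is known by here. GTSF1 encodes a small zinc-finger cofactor of PIWI proteins in the piRNA pathway, known from the germ line. ACN9, now named SDHAF3, encodes an assembly factor of succinate dehydrogenase, the mitochondrial enzyme shared by the citric acid cycle and the respiratory chain.

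Promoter sequence took no part in the choice of members, and 4 promoters are shown because they span the range found among the 34 members with a RefSeq entry: GTSF1 had the fewest CpG dinucleotides for its base composition, MRFAP1L1 and ACN9 the most, and HENMT1 belongs to the same pathway as GTSF1. Each is the 250 bases before the annotated start in RefSeq (GRCh38.p14), written 5′ to 3′ on the strand of the gene, with CpG dinucleotides in capitals. The GTSF1 window is chr12:54473603-54473852 (minus strand, 8 CpG), that of HENMT1 chr1:108661475-108661724 (minus strand, 19 CpG), that of ACN9 chr7:97117448-97117697 (plus strand, 28 CpG) and that of MRFAP1L1 chr4:6709866-6710115 (minus strand, 26 CpG).
GTSF1: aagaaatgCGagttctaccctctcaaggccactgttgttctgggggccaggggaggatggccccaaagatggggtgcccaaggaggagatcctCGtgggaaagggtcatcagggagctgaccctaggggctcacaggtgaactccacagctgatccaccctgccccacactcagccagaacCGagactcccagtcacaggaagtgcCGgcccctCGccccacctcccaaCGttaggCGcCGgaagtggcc
HENMT1: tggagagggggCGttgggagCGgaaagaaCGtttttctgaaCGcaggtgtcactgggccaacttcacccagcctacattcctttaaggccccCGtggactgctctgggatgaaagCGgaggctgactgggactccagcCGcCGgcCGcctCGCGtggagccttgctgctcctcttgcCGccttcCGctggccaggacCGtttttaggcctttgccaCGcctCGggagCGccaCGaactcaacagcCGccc
ACN9: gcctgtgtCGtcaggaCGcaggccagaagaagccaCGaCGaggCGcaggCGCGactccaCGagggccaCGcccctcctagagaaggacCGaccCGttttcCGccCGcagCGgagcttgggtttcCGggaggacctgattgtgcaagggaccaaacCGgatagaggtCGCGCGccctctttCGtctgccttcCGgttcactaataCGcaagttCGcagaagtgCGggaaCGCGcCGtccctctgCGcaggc
MRFAP1L1: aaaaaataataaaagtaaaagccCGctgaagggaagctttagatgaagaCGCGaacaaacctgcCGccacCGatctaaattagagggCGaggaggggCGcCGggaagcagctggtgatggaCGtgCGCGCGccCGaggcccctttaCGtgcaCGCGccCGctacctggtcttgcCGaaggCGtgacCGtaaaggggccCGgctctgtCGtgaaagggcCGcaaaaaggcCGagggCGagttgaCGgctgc

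Over all libraries, 13974 to 16357 genes reached 1 FPKM. Within a group, Pearson's r across tested genes was 0.9930 to 0.9972, except the 2 GSK343 libraries, which stood further apart (r = 0.9700; their log2 values differed by a root mean square of 0.497, and those of both Pfeiffer DMSO libraries by 0.185). Results for GSK343 are therefore also given without each of these libraries. Of 20 entries for B cell identity genes, RL had 19 at 1 FPKM or more in both libraries, against 17 in KARPAS-422 DMSO and 14 in Pfeiffer DMSO. The entry below that level in RL was a second entry of SPIB (1.64e-10 and 1.47e-08 FPKM). The other entry of SPIB read 128 FPKM in both RL libraries, so each distinct gene found reached that level in RL. Of 17 T and NK cell markers 3 reached 1 FPKM in both RL libraries, of 12 myeloid markers 1, and of 13 epithelial and stromal markers 0. These counts were 5, 0 and 4 in Pfeiffer DMSO and 3, 1 and 2 in KARPAS-422 DMSO. The summed T and NK cell list was 489 to 491 FPKM in Pfeiffer DMSO, against 75.2 to 79.8 in RL and 84.9 to 93.6 in KARPAS-422 DMSO. The summed level of the epithelial and stromal list was 583 to 691 FPKM with CPI-169, against 215 to 259 with DMSO, most of it the proteoglycan gene DCN (means of 643 and 230 FPKM), while ACTA2 averaged 4.91 FPKM with CPI-169 and 8.14 FPKM with DMSO. The collagen gene COL1A2 read 0.0376, 0.152 and 0.172 FPKM with CPI-169 and was listed at 0 with DMSO, and COL3A1 was at 0.00633 FPKM or less in both groups. The part of such markers in the changes below was not tested. EZH2 mRNA was 66.1 and 65.3 FPKM in RL, 41.5, 40.5 and 41.0 FPKM with CPI-169, against 44.4, 48.7 and 49.1 with DMSO in KARPAS-422, and 13.8 and 20.9 FPKM with GSK343, against 31.6 and 30.8 with DMSO in Pfeiffer.

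The 42 members were close to off in RL. Their median level was 0.0269 and 0.0405 FPKM in the 2 RL libraries, and the highest was 0.466 and 0.451. In both RL libraries 26 members were under 0.1 FPKM, and 6 were listed at exactly 0, namely ACCS, ACN9, ANKS6, FAM89A, TBC1D32 and ZNF331. By the rule, any other autosomal gene with such values would be a member unless it had a HIST, HLA or ANXA symbol. With those symbols included the number was also 6. A further 8 members were listed at 0 in 1 of the 2 RL libraries. In bulk RNA, fewer expressing cells and less RNA per cell cannot be told apart.

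The median of the member means was 14.7 FPKM in KARPAS-422 DMSO and 10.3 FPKM in Pfeiffer DMSO, and 10 members had a mean of 20 FPKM or more in both lines. The members were 0.542% of the 7754 autosomal genes at 5 FPKM or more in all DMSO libraries of these lines. With the same thresholds 57 genes were silent in KARPAS-422 alone and 62 in Pfeiffer alone.

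**Figure D1:**
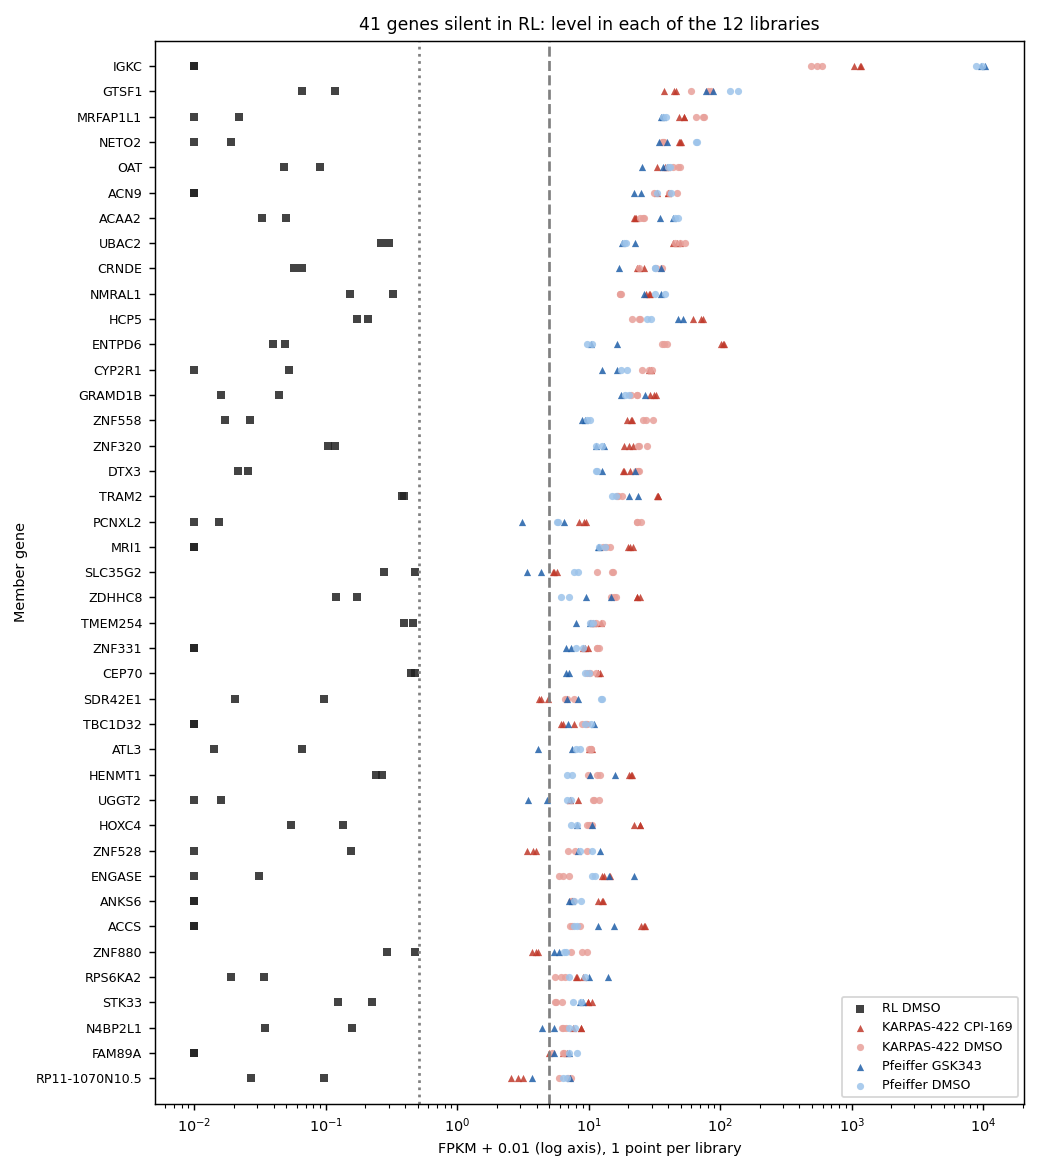
Expression of 41 of the 42 members in each of the 12 libraries, in FPKM plus 0.01 on a log axis, with members in rows by their mean over KARPAS-422 and Pfeiffer DMSO. The dotted and dashed lines mark 0.5 and 5 FPKM, the thresholds that chose the members. All RL points lie left of the dotted line, and all treated points of the other lines lie at 2.54 FPKM or more.

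Members just inside the RL threshold were CEP70 (0.466 and 0.431 FPKM), ZNF880 (0.466 and 0.284) and SLC35G2 (0.465 and 0.265). Just outside it were CHST10 (0.283 and 0.521), KLHL14 (0.552 and 0.478) and TMEM145 (0.469 and 0.573). At the other threshold FAM89A, STK33 and RPS6KA2 were inside with lowest values of 5.22, 5.49 and 5.54 FPKM, and LZTFL1, ZFP30 and SLC12A8 outside with 4.98, 4.86 and 4.76 FPKM. A limit of 0.25 FPKM in RL kept 34 genes and a limit of 1 FPKM gave 56, while 10 FPKM in the other lines kept 19 and 2 FPKM gave 101.

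KARPAS-422 and Pfeiffer expressed most members within 2-fold of each other, but mostly not at the same level. The DMSO means of 32 members lay within 2-fold, 7 members were more than 2-fold higher in KARPAS-422 and 3 more than 2-fold lower. All KARPAS-422 DMSO libraries lay above both Pfeiffer DMSO libraries for 19 members and below both for 14. The rule used these libraries, and the same shares over other genes were not computed. PCNXL2, a member of the pecanex family of membrane proteins, averaged 23.8 FPKM in KARPAS-422 and 5.75 FPKM in Pfeiffer. ENTPD6, a nucleoside diphosphatase, averaged 37.7 FPKM in KARPAS-422 and 10.1 FPKM in Pfeiffer. The immunoglobulin kappa constant gene IGKC went the other way, with 543 FPKM in KARPAS-422 and 9298 FPKM in Pfeiffer.

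IGKC was the member with the widest range. It read 5.486e-09 and 4.499e-09 FPKM in RL, 1155, 1042 and 1173 FPKM with CPI-169 in KARPAS-422, against 493, 591 and 546 with DMSO, and 10292 and 9639 FPKM with GSK343 in Pfeiffer, against 8793 and 9803 with DMSO. The lambda constant gene IGLC1, which is no member, read 1153 and 1223 FPKM in RL, 0.131 to 0.234 FPKM in KARPAS-422 DMSO and 81.0 and 91.1 FPKM in Pfeiffer DMSO. A B cell normally uses kappa or lambda light chains but not both. Lambda constant genes are nearly identical in sequence, so the split of reads among them is uncertain. The gene AC096579.7 overlaps IGKC and read 30.6 and 30.3 FPKM in RL, so the share of reads given to IGKC there is uncertain too. IGKC rose with CPI-169 (log2 fold change 1.05, SE 0.111, limma, Benjamini-Hochberg adjusted p = 1.89e-05), with no overlap between the groups, and its GSK343 and DMSO libraries overlapped (0.10, adjusted p = 0.618).

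With CPI-169 in KARPAS-422, 18 members were higher, 14 were lower and 10 did not pass. All log2 fold changes are differences in log2(FPKM + 1), tested with limma over 18731 genes with Benjamini-Hochberg adjustment at 0.05. The members called were 76.2%, against 54.2% of all tested genes and 61.3% of the 7754 genes at the same baseline threshold. Those higher were 42.9% of members, against 26.9% of tested genes and 21.9% of the genes at the same threshold, and those lower were 33.3%, against 27.3% and 39.3%. The CPI-169 libraries all lay above the DMSO libraries for 19 members and all below for 16, against 33.2% and 31.8% of tested genes (65% in either direction). The median log2 fold change was -0.00 over the 42 members, -0.13 over the genes at the same threshold and 0.01 over all tested genes. The fit pools the spread over all groups, RL included, where the rule chose members under 0.5 FPKM. RL therefore adds little spread for members, which can raise their share of calls. With KARPAS-422 fitted alone, 18 members were higher and 16 lower, against 5508 and 5420 of the 18731 tested genes.

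With GSK343 in Pfeiffer, 7 members were higher, 8 were lower and 27 did not pass. Calls made up 35.7% of members, against 29.5% of all tested genes and 33.6% of the genes at the same baseline threshold, so the share of members called was near the background. Higher calls were 16.7% of members, against 12% of tested genes and 7.14% of the genes at the same threshold, and lower calls were 19%, against 17.5% and 26.5%. Both GSK343 libraries lay above both DMSO libraries for 8 members and below for 17, against 23.9% and 34% of tested genes (57.8% in either direction). The median log2 fold change was -0.16 over members, -0.16 over the genes at the same threshold and -0.03 over all tested genes. Quantile normalization gave 9 higher and 6 lower. Without GSK343 replicate 1 the counts were 10 higher and 9 lower, without replicate 2 they were 7 and 16, without DMSO replicate 1 they were 4 and 5, and with Pfeiffer fitted alone no member passed (limma; 14 members had an unadjusted p under 0.05), so each GSK343 call given below was lost in that fit.

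**Figure D2:**
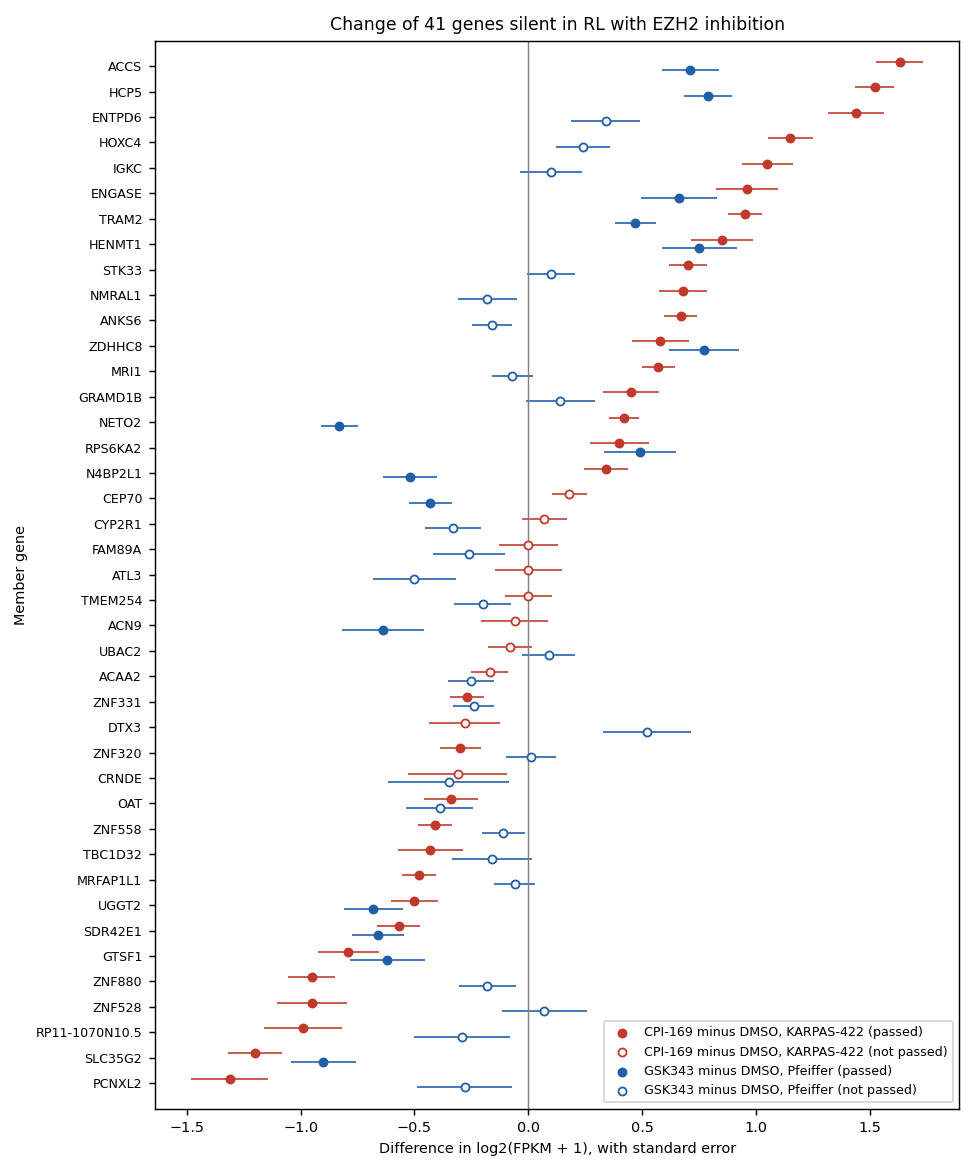
Difference in log2(FPKM + 1) of 41 of the 42 members with CPI-169 against DMSO in KARPAS-422 (red) and with GSK343 against DMSO in Pfeiffer (blue), with standard errors; filled points passed an adjusted p of 0.05. The CPI-169 differences ran from -1.31 for PCNXL2 to 1.63 for ACCS, and the GSK343 differences from -0.90 for SLC35G2 to 0.79 for HCP5.

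Set side by side, 7 members were higher with both inhibitors (5.65% of tested genes were), 4 were lower with both (7.02%) and 2 were called in opposite directions (4.85%). Those higher in both lines were ACCS, ENGASE, HCP5, HENMT1, RPS6KA2, TRAM2 and ZDHHC8. Those lower in both were GTSF1, SDR42E1, SLC35G2 and UGGT2. NETO2 and N4BP2L1 were higher with CPI-169 and lower with GSK343. Neither treatment gave a call for ACAA2, ATL3, CRNDE, CYP2R1, DTX3, FAM89A, TMEM254 and UBAC2, which is 8 members (33.8% of tested genes had no call in either). Each line had its own DMSO libraries, so these comparisons share no controls.

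The small RNA pathway members moved in opposite directions, and each moved the same way in both lines. GTSF1 (ENSG00000170627, hg19 chr12:54849733-54867386) was 0.107 and 0.0553 FPKM in RL. It was 44.7, 37.0 and 46.4 FPKM with CPI-169, against 59.4, 80.4 and 84.9 with DMSO in KARPAS-422, and 87.5 and 78.0 FPKM with GSK343, against 137 and 119 with DMSO in Pfeiffer. Every treated library was below every DMSO library of its line. GTSF1 fell by 0.79 on the log2 scale with CPI-169 (SE 0.135, limma, Benjamini-Hochberg adjusted p = 0.000552) and by 0.62 with GSK343 (SE 0.165, adjusted p = 0.0176). The GSK343 call was lost without GSK343 replicate 2, without Pfeiffer DMSO replicate 1, with quantile normalization, with the replicate block and with Pfeiffer fitted alone, with adjusted p of 0.00424 to 0.125 over all alternatives (limma).

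HENMT1 (ENSG00000162639, hg19 chr1:109190911-109204148) encodes the methyltransferase that modifies the 3′ end of piRNAs. It was 0.256 and 0.230 FPKM in RL, 21.1, 20.1 and 21.2 FPKM with CPI-169, against 9.80, 11.6 and 12.1 with DMSO in KARPAS-422, and 10.2 and 15.8 FPKM with GSK343, against 6.81 and 7.49 with DMSO in Pfeiffer. The groups did not overlap in either line. The log2 fold change was 0.85 with CPI-169 (SE 0.135, limma, Benjamini-Hochberg adjusted p = 0.00034) and 0.75 with GSK343 (SE 0.165, adjusted p = 0.00689), and the GSK343 call was lost without Pfeiffer DMSO replicate 1 and with Pfeiffer fitted alone, with adjusted p of 0.000109 to 0.168 over all alternatives (limma).

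The PIWI genes, whose proteins bind piRNAs in the germ line, were listed at or near 0 in all 3 lines. PIWIL1 and PIWIL3 were listed at 0 in every library, and the group means of PIWIL2 and PIWIL4 were at most 0.0383 and 0.0221 FPKM. Of the 23 genes listed, 8 passed the filter on low values, among which CPI-169 gave 5 higher and 2 lower calls, and GSK343 gave 2 higher and 2 lower calls (called genes were 54.2% and 29.5% of all tested). The Tudor domain gene TDRD7 was higher with both (log2 fold changes of 0.57 and 0.62) and averaged 0.874 FPKM in RL, above the RL threshold for members.

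**Figure D3:**
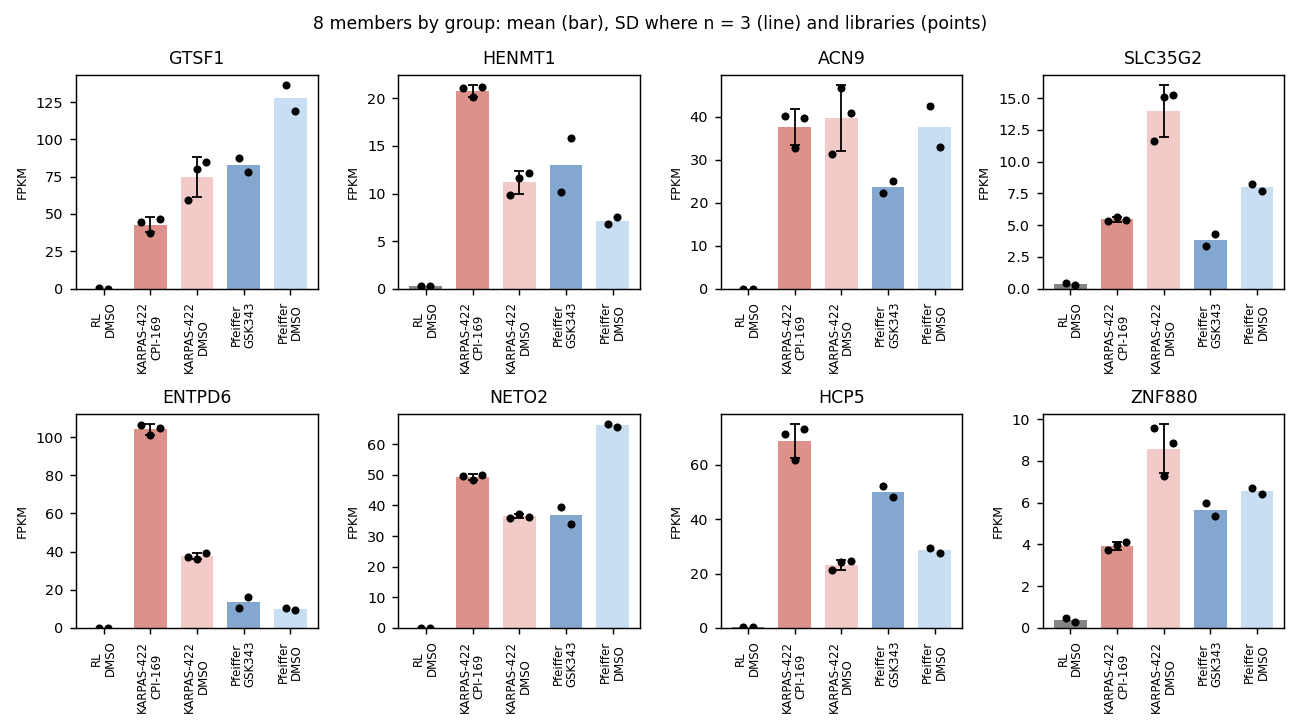
FPKM of 8 members by group, with bars for group means, lines for the SD where n = 3 and points for libraries. RL bars are near 0 in all panels; GTSF1 and SLC35G2 are lower and HENMT1 and HCP5 are higher in treated cells of both lines, while NETO2 is higher with CPI-169 in KARPAS-422 and lower with GSK343 in Pfeiffer.

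Mitochondrial members numbered 3, and neither inhibitor gave a higher call among them, while each gave 1 lower call. Higher calls made up 26.9% of all tested genes for CPI-169 and 12% for GSK343. Lower calls made up 27.3% and 17.5%. So few genes cannot set the group apart from that background. ACN9 (ENSG00000196636, hg19 chr7:96745901-96811075) was listed at 0 in both RL libraries. It was 40.3, 32.7 and 39.8 FPKM with CPI-169, against 31.4, 46.8 and 40.9 with DMSO in KARPAS-422, where the groups overlapped (log2 difference -0.06, SE 0.147, limma, Benjamini-Hochberg adjusted p = 0.766). In Pfeiffer it was 22.2 and 25.1 FPKM with GSK343, against 42.5 and 32.9 with DMSO, and it fell by 0.64 on the log2 scale (SE 0.18, limma, Benjamini-Hochberg adjusted p = 0.0224). That call was lost without GSK343 replicate 1, without DMSO replicate 1 of Pfeiffer, without the filter on low values, with quantile normalization, with the replicate block and with Pfeiffer fitted alone (adjusted p of 0.00879 to 0.176 over all alternatives, limma).

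The other genes of succinate dehydrogenase were expressed in RL. The 4 subunit genes SDHA, SDHB, SDHC and SDHD averaged 75.2, 106, 38.9 and 84.3 FPKM there, and the other assembly factor genes SDHAF1, SDHAF2 and C6orf57 averaged 17, 27.3 and 10.3 FPKM. Of the 8 genes on the list, ACN9 included, CPI-169 gave 0 higher and 2 lower calls, and GSK343 gave 0 higher and 3 lower calls, which is 25% and 37.5% called, against 54.2% and 29.5% of all tested genes. OAT, ornithine aminotransferase, was 36.8 ± 3.15 FPKM with CPI-169 and 46.8 ± 3.19 FPKM with DMSO in KARPAS-422 (SD, n = 3 each), and fell by 0.34 on the log2 scale (limma, Benjamini-Hochberg adjusted p = 0.0336), a call that ended when replicate 2 or 3 of either group was left out, with a pseudocount of 0.1, without the filter on low values, with quantile normalization and with the replicate block. ACAA2, a thiolase of mitochondrial fatty acid oxidation, was at 22.5 ± 0.488 FPKM with CPI-169 and 25.5 ± 0.772 FPKM with DMSO (SD, n = 3 each), with all CPI-169 libraries below all DMSO libraries, and did not pass (log2 difference -0.17, limma, Benjamini-Hochberg adjusted p = 0.0991).

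Members of the endoplasmic reticulum, glycoprotein and membrane group numbered 9, among which CPI-169 gave 5 higher and 2 lower calls, and GSK343 gave 3 higher and 2 lower calls. Over all tested genes the shares higher and lower were 26.9% and 27.3% for CPI-169, and 12% and 17.5% for GSK343. TRAM2, a translocon-associated protein, was higher with both inhibitors, at 33.4 ± 0.57 FPKM with CPI-169 and 16.9 ± 0.846 FPKM with DMSO in KARPAS-422 (SD, n = 3 each), and at 20.2 and 23.8 FPKM with GSK343, against 15.1 and 16.02 with DMSO in Pfeiffer. ZDHHC8, a palmitoyltransferase, was also higher with both (log2 fold changes of 0.58 and 0.77), as was ENGASE, which releases N-glycans from proteins in the cytosol (0.96 and 0.66), whose GSK343 call was lost without either Pfeiffer DMSO library.

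UGGT2, a glucosyltransferase related to the folding sensor of glycoproteins, and the putative transporter gene SLC35G2 were lower with both. SLC35G2 was 0.465 and 0.265 FPKM in RL, 5.33, 5.68 and 5.38 FPKM with CPI-169, against 11.6, 15.1 and 15.2 with DMSO in KARPAS-422, and 3.37 and 4.29 FPKM with GSK343, against 8.27 and 7.67 with DMSO in Pfeiffer. The treated libraries stayed apart from the DMSO libraries in both lines (log2 fold changes of -1.20 and -0.90, limma, Benjamini-Hochberg adjusted p = 1.09e-05 and 0.00116). UGGT2 fell by 0.50 and 0.68 on the log2 scale. GRAMD1B, a sterol transfer protein of membrane contact sites, was higher with CPI-169 (0.45) and did not pass with GSK343, and the atlastin gene ATL3 and the ubiquitin-associated gene UBAC2 did not pass in either line.

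Of 6 other metabolic enzyme genes, 4 were higher and 1 was lower with CPI-169, and 1 was higher and 1 lower with GSK343, beside the same shares over all tested genes (26.9% and 27.3% with CPI-169, 12% and 17.5% with GSK343). ACCS, named for its likeness to plant aminocyclopropane carboxylate synthases, had the highest fold change of all members. It was listed at 0 in both RL libraries, was 26.3, 24.9 and 26.6 FPKM with CPI-169, against 8.51, 7.42 and 7.17 with DMSO in KARPAS-422, and 11.8 and 15.6 FPKM with GSK343, against 8.14 and 7.66 with DMSO in Pfeiffer. The groups did not overlap in either line (log2 fold changes of 1.63 and 0.71, limma, Benjamini-Hochberg adjusted p = 5.2e-07 and 0.00196). ENTPD6 was 107, 101 and 105 FPKM with CPI-169, against 37.2, 36.3 and 39.5 with DMSO (log2 fold change 1.44), and its GSK343 and DMSO libraries overlapped in Pfeiffer (10.4 and 16.3 FPKM, against 10.6 and 9.64).

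MRI1, an isomerase of the methionine salvage pathway, and NMRAL1, an NADPH sensor, were higher with CPI-169 (0.57 and 0.68) and did not pass with GSK343. SDR42E1, a short-chain dehydrogenase, was lower with both inhibitors, at 4.44 ± 0.381 FPKM with CPI-169 and 7.06 ± 0.634 FPKM with DMSO in KARPAS-422 (SD, n = 3 each), and at 8.23 and 6.84 FPKM with GSK343, against 12.3 and 12.5 with DMSO in Pfeiffer. CYP2R1, the main vitamin D 25-hydroxylase, was at 29.4 ± 0.641 FPKM with CPI-169 and 27.9 ± 2.44 FPKM with DMSO (SD, n = 3 each), and at 12.6 and 16.5 FPKM with GSK343, against 19.3 and 17.5 with DMSO. It passed in neither comparison.

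The 5 zinc-finger members were all lower with CPI-169 (27.3% of tested genes were), and none passed with GSK343 (limma; 1 of the 5, ZNF331, had an unadjusted p under 0.05). ZNF880 was 0.466 and 0.284 FPKM in RL, 3.71, 3.99 and 4.10 FPKM with CPI-169, against 9.60, 7.29 and 8.88 with DMSO in KARPAS-422, and 5.96 and 5.38 FPKM with GSK343, against 6.70 and 6.41 with DMSO in Pfeiffer. ZNF528 was at 3.69 ± 0.29 FPKM with CPI-169 and 8.11 ± 1.35 FPKM with DMSO in KARPAS-422 (SD, n = 3 each). Both had a log2 fold change of -0.95, and ZNF558, ZNF320 and ZNF331 fell by 0.41, 0.30 and 0.27. The call of ZNF320 was lost without DMSO replicate 1, without CPI-169 replicate 1 and with quantile normalization, and all 5 fold changes stayed below 0 under each alternative run. Such genes encode DNA-binding proteins, many of them KRAB repressors, and similar copies make their values uncertain.

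Most zinc-finger genes tested were lower with CPI-169, members or not. Of 426 genes with a ZNF symbol tested, 243 were lower and 59 higher (median log2 fold change -0.35), and of the 162 of these at 5 FPKM or more in the DMSO libraries of both lines, 107 were lower and 18 higher. With GSK343 the 426 genes had 76 lower and 25 higher. The remaining DNA-binding member, HOXC4, a homeobox gene, was higher with CPI-169, at 22.0, 24.4 and 24.4 FPKM, against 10.05, 9.61 and 10.49 with DMSO (log2 fold change 1.15), and its GSK343 and DMSO libraries overlapped in Pfeiffer (8.10 and 10.6 FPKM, against 8.12 and 7.29).

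NETO2, an auxiliary subunit of kainate receptors, was the member whose change differed between the lines with the smallest adjusted p. It was 0.00886 and 0 FPKM in RL, 49.3 ± 0.976 FPKM with CPI-169 and 36.5 ± 0.667 FPKM with DMSO in KARPAS-422 (SD, n = 3 each, groups apart), and 39.5 and 34.1 FPKM with GSK343, against 66.6 and 65.7 with DMSO in Pfeiffer. The change with CPI-169 exceeded that with GSK343 by 1.26 on the log2 scale (SE 0.103, limma, Benjamini-Hochberg adjusted p = 1.29e-05). The kinase gene RPS6KA2, which encodes ribosomal S6 kinase RSK3, was higher with both (0.40 and 0.49), but its calls lay near the threshold: the CPI-169 call ended without replicate 2 or 3 of KARPAS-422 DMSO and without replicate 3 of CPI-169, and the GSK343 call without any of 9 libraries (those 3, CPI-169 replicates 1 and 2, both RL libraries, Pfeiffer DMSO replicate 1 and GSK343 replicate 1). Both calls also ended without the filter on low values and with the replicate block, the CPI-169 call with quantile normalization and median scaling, and the GSK343 call with a pseudocount of 0.1. The serine/threonine kinase gene STK33 was higher with CPI-169 (0.70), and DTX3, a Deltex family ubiquitin ligase, passed in neither line.

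In all, the changes of 19 members differed between the lines, 14 with a higher change in KARPAS-422 and 5 with a lower one, which is 45.2% of members and 42.6% of tested genes, near the background. By direction these were 33.3% and 11.9% of members, against 23.8% and 18.8% of tested genes. Median scaling gave 14 and 8, the fit without GSK343 replicate 1 gave 15 and 10, and that without Pfeiffer DMSO replicate 2 gave 15 and 3. The difference for DTX3 was lost without either Pfeiffer DMSO library and without the filter on low values, that for MRFAP1L1 without replicate 2 of these libraries and with the replicate block, that for IGKC with the block and that for ZNF528 with a pseudocount of 0.1. Other members with small adjusted p values for this contrast were ANKS6 (difference 0.83, SE 0.115), HOXC4 (0.91, SE 0.155), ACCS (0.92, SE 0.161) and ENTPD6 (1.10, SE 0.195). For GTSF1 and HENMT1 the differences were -0.17 (SE 0.213) and 0.09 (SE 0.213), and neither passed (limma, Benjamini-Hochberg adjusted p = 0.559 and 0.748).

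Members linked to the cilium and centrosome were split. ANKS6, a ciliary ankyrin-repeat protein, was higher with CPI-169 (12.8, 11.8 and 12.7 FPKM, against 7.41, 7.27 and 7.56 with DMSO), TBC1D32 was lower, a call that ended without replicate 2 or 3 of DMSO, without replicate 1 or 3 of CPI-169, without the filter on low values and with the replicate block, and the centrosomal gene CEP70 was lower with GSK343 (7.10 and 6.68 FPKM, against 9.97 and 9.30 with DMSO), a call lost without Pfeiffer DMSO replicate 1. Among noncoding RNAs, HCP5, transcribed within the major histocompatibility complex, was higher with both inhibitors. It was 71.5, 61.7 and 73.2 FPKM with CPI-169, against 21.2, 24.1 and 24.6 with DMSO, and 52.3 and 48.0 FPKM with GSK343, against 29.5 and 27.6 with DMSO (log2 fold changes of 1.52 and 0.79, limma, Benjamini-Hochberg adjusted p = 2.76e-07 and 0.000371). The groups did not overlap, and RL read 0.163 and 0.200 FPKM. The long noncoding RNA CRNDE passed in neither line, and its GSK343 libraries differed from each other (17.04 and 35.5 FPKM, against 31.6 and 31.8 with DMSO). RP11-1070N10.5 was lower with CPI-169 (2.89, 3.17 and 2.54 FPKM, against 5.97, 6.88 and 7.25 with DMSO).

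Of the 5 members with other roles, PCNXL2 and MRFAP1L1 were lower with CPI-169 and N4BP2L1 was higher, a call lost without CPI-169 replicate 1, with a pseudocount of 0.1, with quantile normalization and with the replicate block. The lower call of N4BP2L1 with GSK343 was lost without Pfeiffer DMSO replicate 2 and with a pseudocount of 0.1. PCNXL2 had the lowest fold change of all members, at 9.11, 9.45 and 8.39 FPKM with CPI-169, against 24.7, 23.3 and 23.3 with DMSO (log2 fold change -1.31, SE 0.169, limma, Benjamini-Hochberg adjusted p = 7.65e-05). MRFAP1L1 was 0 and 0.0117 FPKM in RL, 52.5, 48.2 and 52.7 FPKM with CPI-169, against 65.2, 74.3 and 75.7 with DMSO in KARPAS-422, and 35.3 and 36.8 FPKM with GSK343, against 38.4 and 36.9 with DMSO in Pfeiffer. FAM89A and TMEM254 passed in neither line. After treatment 32 members were at 5 FPKM or more in all treated libraries of both lines, and the lowest treated value of any member was 2.54 FPKM.

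The genes beside the members were mostly expressed in RL. Of the 84 nearest expressed genes on either side of the members (1 FPKM or more in all DMSO libraries of the other lines), 74 were at 1 FPKM or more in both RL libraries, which is 88.1%, against 95.6% of the 11535 autosomal genes that met the same expression limit. Both neighbours were at that level for 33 members, 1 of the 2 for 8 members and neither for 1, ZNF320. The median distance from member to neighbour was 65669 bp, and the longest was 2144312 bp, so many of these genes are not adjacent. GTSF1 lies between ZNF385A (14.3 and 12.7 FPKM in RL, at 64651 bp) and NCKAP1L (78.2 and 76.6, at 24108 bp). ACN9 lies between SHFM1 (143 and 149, at 406698 bp) and ASNS (207 and 208, at 670354 bp).

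The neighbours under 0.5 FPKM in RL numbered 5, or 5.95%, against 1.88% of the 11535 genes. The adjacent members ZNF880 and ZNF528 on chromosome 19 lie 12053 bp apart and were each other's silent neighbour. The others were IGKV1-37 at 439824 bp from IGKC, RP11-1070N10.7 at 1222 bp from RP11-1070N10.5 and CTD-2331H12.5 at 923 bp from ZNF320. Values of pairs as close as those of RP11-1070N10.5 and ZNF320 are uncertain. Members lay on 18 chromosomes, and the 6 on chromosome 19, which are the 5 zinc-finger genes and MRI1, were 14.3% of members, against 7.11% of the 7754 genes at the same baseline threshold. An expressed gene overlapped 11 members, and since the handling of strand is not given, reads of such pairs cannot be told apart. IGKC and MRI1 are among them. MRI1 read 0 and 4e-115 FPKM in RL, and C19orf53, which overlaps it, 102 and 101 FPKM. CTB-5E10.3 also overlaps MRI1 and read 0 and 0.0868 FPKM in RL. It averaged 3.54 FPKM in KARPAS-422 DMSO and 11.8 FPKM in Pfeiffer DMSO. Of the 13 overlapping genes it was the 1 under 0.5 FPKM in both RL libraries.

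**Figure D4:**
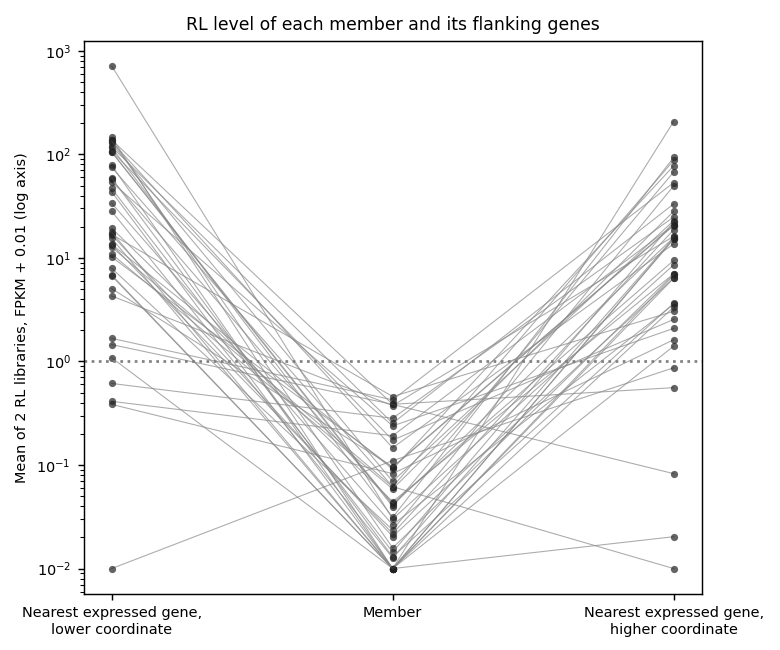
RL level of each member (centre) and of its nearest expressed gene on the lower-coordinate side (left) and the higher-coordinate side (right), as the mean of 2 libraries in FPKM plus 0.01 on a log axis, with a line per member. Most lines dip at the member, and 74 of the 84 neighbours are at 1 FPKM or more, the dotted line, in both libraries.

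Most promoters of members were rich in CpG, like those of other genes transcribed in both other lines. In the 300-base RefSeq windows (250 bases before to 50 after the start) the observed over expected ratio of CpG had a median of 0.884 over 32 of the 38 protein-coding members, against 0.873 over 5566 of 6627 protein-coding genes at the same baseline threshold. The ratio was 0.6 or more for 29 members (90.6%), against 90.2% of those genes. For protein-coding genes silent in KARPAS-422 alone (41 of 46 with a window) the median was 0.809 with 70.7% at 0.6 or more, and for those silent in Pfeiffer alone (35 of 42) it was 0.487 with 45.7%. No test was run between these sets. Among the 34 members with a window GTSF1 had the lowest ratio, 0.349, with 10 CpG in its window, and MRFAP1L1 (1.19) and ACN9 (1.15) had the highest, as the sequences above show.

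**Figure D5:**
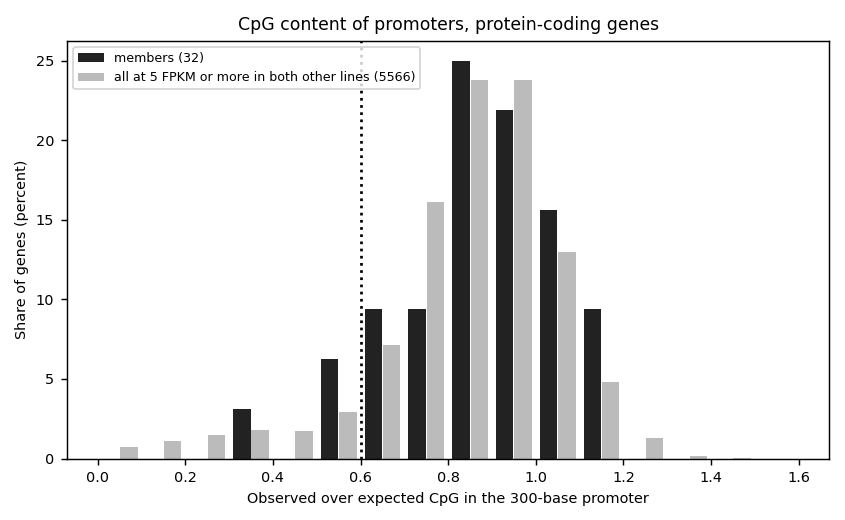
Share of promoters, in percent, by observed over expected CpG in the 300-base window, for 32 protein-coding members (black) and 5566 protein-coding genes at 5 FPKM or more in the DMSO libraries of both other lines (grey). Both peak between 0.8 and 1.0, and the dotted line marks 0.6.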

How the data were processed

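The authors deposited 1 table of FPKM values for 63129 Ensembl genes in 12 libraries, made with TopHat 1.4.1 (alignment, hg19) and Cufflinks, per the submitters' processing notes. Library kit, strand setting and annotation release were not given in the sources used here. Per the labels' protocols, cells were lysed in Trizol or RLT buffer, and which library had which is not stated. FPKM divides by length and by mapped fragments, so very abundant transcripts lower all other values of a library, and the 10 top genes took 6.37% to 8.55% of all FPKM in Pfeiffer and 1.94% to 2.44% elsewhere. Absolute depth is unknown and counting intervals were not computed. Steps between low values put the relative depth at 0.651 to 1 (KARPAS-422), 1 to 1.34 (Pfeiffer) and 0.768 to 1 (RL), each line scaled to 1 of its DMSO libraries. Exact zeros can be failed estimates and are written as listed at 0. Whether replicates were separate cultures is not stated, and the spread behind the p-values is that between these libraries alone, possibly a technical one. The fit shares 1 estimate of the spread per gene over all 5 groups. A GSK343 p-value therefore also draws on KARPAS-422 and RL libraries, which lay closer together. Log2 values differed by a root mean square of 0.164 to 0.245 within those groups and 0.497 between the GSK343 libraries.

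Missing values left out 77 genes. The 18731 genes that reached 1 FPKM in 2 libraries or more were transformed to log2(FPKM + 1), a scale that understates changes of low genes. One limma fit (3.58.1, R 4.3.3, trend over intensity) covered all 5 groups, with 7 residual degrees of freedom plus 3.45 from the prior, Benjamini-Hochberg adjusted p-values and a threshold of 0.05. All 42 members passed the filter. Contrasts were CPI-169 minus DMSO in KARPAS-422, GSK343 minus DMSO in Pfeiffer, and their difference. The fit was also run on simulated data, in which all groups shared 1 spread per gene. That run could not show how the wider spread of the GSK343 libraries affects the calls. Means, counts, neighbours and promoters were computed with Python 3.11.15 and pandas 2.3.3. Loci and neighbours used the hg19 coordinates of the table. Promoters came from RefSeq (GRCh38.p14), matched by Ensembl ID and symbol for 34 of the 42 members, and gene types from GENCODE by Ensembl ID.

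The members and the gene lists were chosen with earlier results of these data known. The rule for named genes took GTSF1 and ACN9, the 12 members with the highest baseline level, the genes nearest both thresholds, per treatment the 8 called members with the highest and the 8 with the lowest fold change whose groups lay apart, the 6 members whose changes differed between the lines with the smallest adjusted p, members on a gene list, members with a silent neighbour, and EZH2. Other members are named so that they are accounted for, except 1 member that is counted in the totals and not reported here. The lists covered the piRNA pathway, succinate dehydrogenase, zinc-finger genes, B cell identity, germinal centre B cell, T and NK cell, myeloid, epithelial and stromal markers, PRC2 subunits, glutathione transferases, GIMAP genes and cytokine receptors.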

Additional observations from a re-analysis of the deposited data

Results flagged for a closer look

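For 19 members the change with CPI-169 in KARPAS-422 differed from the change with GSK343 in Pfeiffer by limma's contrast of both changes, adjusted over all 18731 genes, and 42.6% of all tested genes met the same criterion. Line and compound cannot be told apart in these differences. The values of 18 of them follow. On the log2 scale, NETO2 (1.26), ENTPD6 (1.10), IGKC (0.95), ACCS (0.92), HOXC4 (0.91), N4BP2L1 (0.86), NMRAL1 (0.86) and ANKS6 (0.83) had a higher change with CPI-169. HCP5 (0.73), MRI1 (0.64), CEP70 (0.61), STK33 (0.60) and TRAM2 (0.48) did so by smaller amounts. PCNXL2 (-1.03), ZNF528 (-1.02), DTX3 (-0.80), ZNF880 (-0.77) and MRFAP1L1 (-0.42) had a lower change with CPI-169. Of these, NETO2 and N4BP2L1 were called in opposite directions in the lines, and DTX3 was called in neither line alone. DTX3 was 18.5, 18.2 and 20.7 FPKM with CPI-169, against 23.6, 22.9 and 23.9 with DMSO, and 12.6 and 22.5 FPKM with GSK343, against 11.6 and 11.4 with DMSO. The GSK343 libraries of DTX3 differ from each other by more than its DMSO libraries do.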

How the results depend on the processing

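Depth is unknown and low genes cannot be given a counting limit. The counts with CPI-169 and the count of members whose change differed between the lines stayed within 1.5 times of the reported values under each alternative run, but the members with a lower change in KARPAS-422, 5 as reported, ranged from 3 (without Pfeiffer DMSO replicate 2) to 10 (without GSK343 replicate 1). Members higher with CPI-169 ranged from 17 to 19 and members lower from 12 to 17 when 1 library was left out, and 18 to 25 members differed between the lines. Members higher with GSK343 ranged from 4 (without Pfeiffer DMSO replicate 1) to 10, and members lower from 5 (without the same library) to 16 (without GSK343 replicate 2). With Pfeiffer fitted alone both counts were 0 (limma, 14 members at an unadjusted p under 0.05). In that case 4 libraries alone estimate the spread, without the closer KARPAS-422 and RL libraries. The rule kept 19 genes at 10 FPKM and 101 at 2 FPKM in the other lines.

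Libraries share replicate numbers, and whether the numbers pair them cannot be told from these values. The deviations of same-numbered libraries from their group means correlated at -0.152, -0.252 and 0.156 in KARPAS-422 and 0.140 in Pfeiffer. With 2 libraries per group, Pfeiffer gives only this value and its mirror (-0.140 for libraries of unlike number). With the replicate block and without RL, members higher and lower were 16 and 11 with CPI-169 and 6 and 6 with GSK343, and 17 differed between the lines. Calls lost under the block were those of N4BP2L1, OAT, RPS6KA2, TBC1D32 and ZNF331 with CPI-169, ACN9, GTSF1 and RPS6KA2 with GSK343, and IGKC and MRFAP1L1 for the difference.

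Of the values of named members under alternatives, 1509 kept direction and call, 71 lost the call, 32 gained it and 28 changed sign, none of the 28 having been called; the cause was not tested. With CPI-169 these were ACN9 (0.08 with quantile normalization; -0.22 to 0.06 with 1 library left out), ATL3 (-0.07 with median scaling; -0.02 to 0.01), FAM89A (-0.09 to 0.11), TMEM254 (0.03 with quantile normalization; -0.06 to 0.07) and UBAC2 (0.03 with quantile normalization). With GSK343 and quantile normalization they were MRFAP1L1 (0.12), MRI1 (0.03) and NMRAL1 (0.00). With 1 library left out, the GSK343 differences ran from -0.86 to 0.16 for CRNDE, -0.14 to 0.43 for GRAMD1B, -0.38 to 0.02 for NMRAL1, -0.71 to 0.15 for PCNXL2, -0.70 to 0.11 for RP11-1070N10.5, -0.46 to 0.14 for TBC1D32, -0.07 to 0.24 for UBAC2, -0.08 to 0.11 for ZNF320 and -0.19 to 0.33 for ZNF528; the lowest or highest of each came without a Pfeiffer library.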

Other observations

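Gene lists that hold no member of the silent set gave the following counts, with limma and Benjamini-Hochberg adjustment over all 18731 genes, where the shares higher and lower were 26.9% and 27.3% for CPI-169, and 12% and 17.5% for GSK343. The share called in either direction was 54.2% and 29.5% of all tested genes, 54.5% and 63.6% of PRC2 subunit genes, 46.4% and 57.1% of receptor genes and 90.9% and 36.4% of glutathione transferase genes with CPI-169 and GSK343. Germinal centre B cell genes had 10 of 18 higher and 2 lower with CPI-169, and 5 higher and 5 lower with GSK343. B cell identity genes had 8 of 19 higher and 5 lower with CPI-169, and 4 higher and 1 lower with GSK343. TCL1A, a coactivator of AKT kinase, was among those higher with both (log2 fold changes of 3.07 and 0.90). Glutathione transferase genes, whose products conjugate glutathione to reactive compounds, had 9 of 11 higher and 1 lower with CPI-169, and 2 higher and 2 lower with GSK343. PRC2 subunit genes had 2 of 11 higher and 4 lower with CPI-169, and 1 higher and 6 lower with GSK343, and JARID2, an accessory subunit, was higher with both (0.75 and 0.82). Cytokine and chemokine receptor genes had 8 of 28 higher and 5 lower with CPI-169, and 12 higher and 4 lower with GSK343. The tested GIMAP gene, GIMAP2, was higher with both (1.27 and 0.52). T and NK cell genes had 5 of 10 higher and 2 lower with CPI-169, and 0 higher and 1 lower with GSK343, myeloid genes 2 of 2 higher and 0 of 2 called, and epithelial and stromal genes 1 of 6 higher and 1 lower, and 3 higher and 1 lower. Because these lists hold no member, none of their autosomal genes met both thresholds of the rule, which is no separate result.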
